A study of Zea mays with 6 samples.

Results

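Starch is made in plastids from ADP-glucose, which ADP-glucose pyrophosphorylase produces from glucose 1-phosphate and ATP. The enzyme is built of large and small subunits, and maize uses partly separate genes for the leaf and for the endosperm, the starch store of the kernel. Starch synthases then lengthen the glucan chains, branching enzymes add branches and isoamylases trim them. In leaves starch is made in the light and broken down at night, and transcripts of the pathway can change with the hour of harvest, which the labels do not state.

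The 9 genes described here, of 44146 identifiers in all, were chosen by identifier as starch synthesis genes of maize (Zea mays). They are the pyrophosphorylase genes sh2 (Zm00001d044129), the leaf large subunit (Zm00001d039131) and bt2 (Zm00001d050032), the transporter gene bt1 (Zm00001d015746), the starch synthase genes wx1 (Zm00001d045462), su2 (Zm00001d037234) and du1 (Zm00001d000002), the branching enzyme gene ae1 (Zm00001d016684) and the isoamylase gene su1 (Zm00001d049753). The deposited tables hold no gene names, and 0 of the identifiers were found in the reference table of names. The gene names therefore rest on the list that defined the set.

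RNA was sequenced from shoots of untreated seedlings, cut from their roots at the 3-leaf stage. The knockout (KO) is a line lacking Gβ, a subunit of the heterotrimeric G protein complex that relays signals from the cell surface, and was represented by 3 libraries. The wild type (WT) was represented by 3 libraries, and the libraries of both groups are described as biological replicates. Because the titles name a single knockout line, loss of Gβ and other differences of that line cannot be told apart, and the labels state neither the strain of either group nor how the knockout was made. The values are FPKM (fragments per kilobase of gene, scaled between libraries by the authors). Reads per gene were worked back from them, and summed to between 14757840 and 17665768 in a library. Being per length, FPKM were compared between genes, which rests on the length used for each gene. The lengths worked back were 4327 bases for the leaf large subunit, 2576 for bt2, 5905 for sh2 and 11290 for ae1. The median was 1711 over genes above 0 in at least 4 libraries. Whether these are transcript lengths was not tested. The level of the Gβ gene and markers of shoot tissue were not analysed here, since no identifier could be matched to a name. In bulk tissue fewer cells of a type and less RNA per cell cannot be told apart. Across the tested genes WT replicate 3 correlated with the other WT libraries at r = 0.882 and 0.895, against 0.983 between those, and KO replicate 2 with the other KO libraries at 0.922 and 0.934, against 0.981 between those. Results are also given without WT replicate 3 and KO replicate 2 where that changes a call.

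In these shoots the starch genes differed widely in level and moved in different directions in the knockout. The transcript of bt2, the only small subunit gene of the set, fell to 38.1% of its WT mean. The transcript of ae1, a branching enzyme gene of very low FPKM in WT shoots, had a mean 4.30 times that of WT. The leaf large subunit gene, the most abundant of the set, had 58.7% of the WT mean, a difference that did not pass the test and that depended on WT replicate 3. The other starch synthase and debranching genes with reads in every library, su2, du1 and su1, had KO means of 107%, 82.0% and 82.6% of WT, and none of them passed the test. The transcripts of wx1 and bt1 were at or close to 0 in both genotypes.

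Genes were tested if they had at least 1 FPKM in at least 3 libraries, and 5 of the 9 members did. Of these 5, 1 passed (limma on log2(FPKM + 1), Benjamini-Hochberg adjusted p below 0.05), bt2, which fell. Over all 23232 tested genes 31.2% passed, 16.0% falling and 15.2% rising, so the count of members called was not above the background. The median log2 fold change of the 5 tested members was -0.20, against 0.02 over all tested genes. The KO and WT libraries did not overlap for 3 of the 5 tested members, bt2, du1 and su1, all lower in KO, and for 49.4% of all tested genes. Of the 4 members left untested for their low FPKM, ae1 and wx1 were higher in every KO library than in every WT library. Over all 31946 genes above 0 in a library, the tested ones included, 13381 (41.9%) did not overlap. Of these, 11487 were among the 23232 tested genes. The share among untested genes alone is therefore below 41.9%, and its value was not computed.

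**Figure D1:**
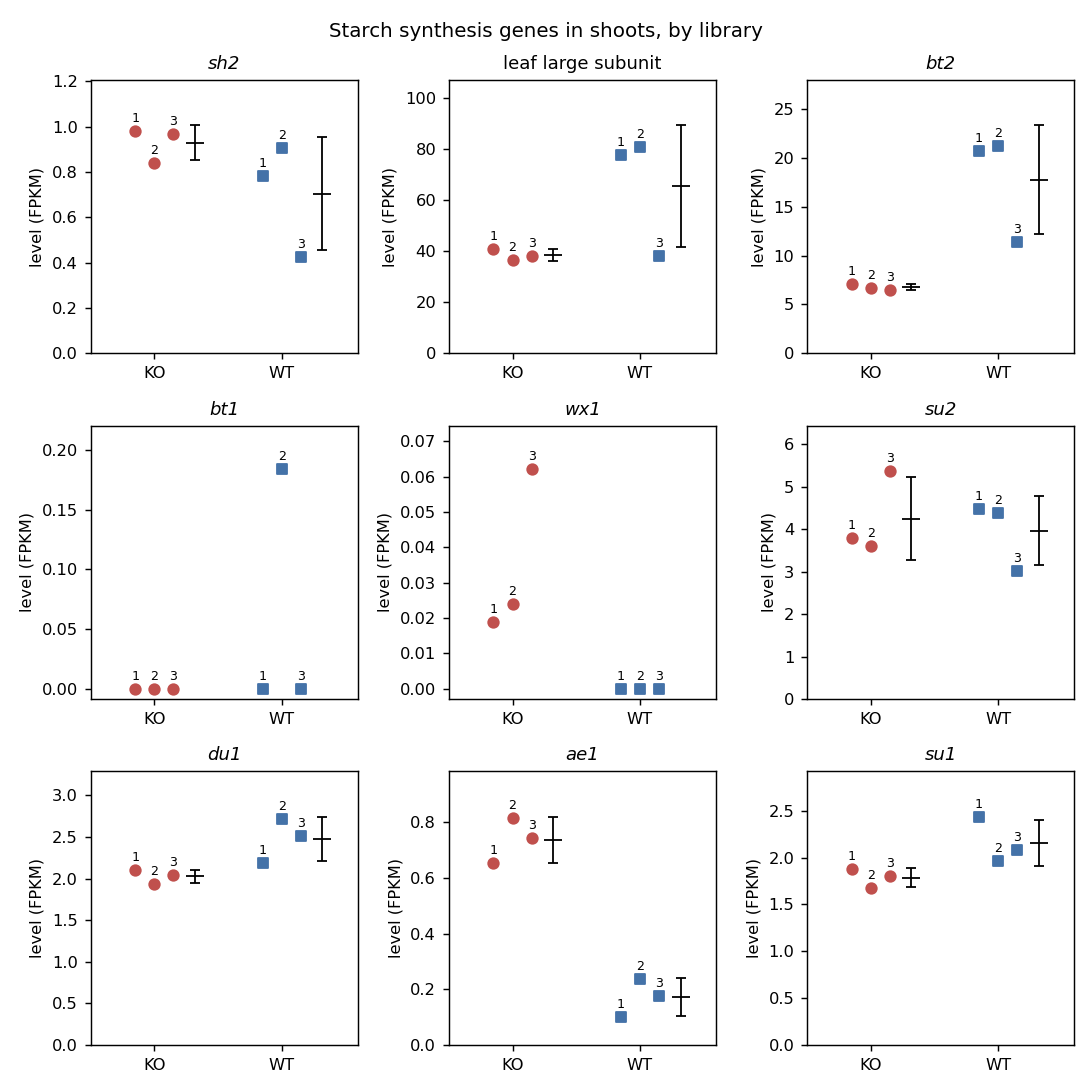
Level in FPKM of each of the 9 starch synthesis genes in the 3 KO libraries (red circles) and the 3 WT libraries (blue squares), with replicate numbers beside the points and the mean ± SD of each group to their right (not drawn for bt1 and wx1, which are listed at 0 in several libraries). Each panel has its own linear axis. For bt2 and ae1 the groups are apart, and WT replicate 3 lies near the KO libraries for the leaf large subunit.

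In KO libraries the order by FPKM was the leaf large subunit, bt2, su2, du1, su1, sh2, ae1, wx1 and bt1, and no neighbours in this order overlapped across the 3 libraries. In WT libraries the first 7 places held the same genes in the same order, but du1 and su1 overlapped, as did ae1, bt1 and wx1 with their neighbours. Both orders rest on the lengths worked back, which were 2990 bases for su2, 8005 for du1 and 5269 for su1. By reads alone, du1 lay above su2 and ae1 above sh2 in every KO library. In every WT library du1 also lay above su2 by reads, but ae1 lay below sh2. The leaf large subunit made up 68.5% to 71.2% of the summed FPKM of the 9 genes in KO libraries and 66.1% to 71.9% in WT libraries. The share of bt2 was 11.7% to 12.9% in KO libraries and 18.9% to 19.7% in WT libraries. The share of ae1 was 1.13% to 1.57% in KO libraries and 0.0928% to 0.307% in WT libraries. Among all genes above 0 in a library, the leaf large subunit lay above 88.4% to 91.6% of genes in KO and above 86.8% to 95.2% in WT. The position of bt2 was above 51.3% to 53.7% of genes in KO libraries and above 63.6% to 78.5% in WT libraries.

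The large subunit of ADP-glucose pyrophosphorylase is regarded as the mainly regulatory part of the enzyme. The leaf large subunit gene had 40.9, 36.5 and 37.9 FPKM in KO replicates 1, 2 and 3, and 77.5, 80.8 and 38.2 FPKM in WT replicates 1, 2 and 3. WT replicate 3 fell within the range of the KO libraries, while WT replicates 1 and 2 lay far above it. The means were 38.5 ± 2.24 FPKM in KO and 65.5 ± 23.7 FPKM in WT (SD, n = 3 each). The log2 fold change was -0.68 with a 95% interval of -1.42 to 0.07 (limma adjusted p = 0.145). Without WT replicate 3 it was -1.02 (limma adjusted p = 0.0040), and without WT replicate 3 and KO replicate 2 it was -0.99 (limma adjusted p = 0.0012). These values rested on 2230 to 5369 reads a library, so counting error was small beside the spread of the WT libraries.

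The sh2 gene encodes the large subunit of the endosperm enzyme, and its loss gives shrunken kernels. In shoots it had 0.98, 0.84 and 0.965 FPKM in KO replicates 1, 2 and 3, and 0.78, 0.905 and 0.426 FPKM in WT replicates 1, 2 and 3, from 34 to 114 reads a library. KO replicate 2 lay below WT replicate 2, so that the groups overlapped. The mean level was 0.928 ± 0.077 FPKM in KO and 0.704 ± 0.248 FPKM in WT (SD, n = 3 each). With no filter on low values its log2 fold change on the log2(FPKM + 1) scale was 0.19 with a standard error of 0.16 (limma adjusted p = 0.453). Without WT replicate 3 it was 0.07 (limma adjusted p = 0.763), and it lay between 0.07 and 0.45 over the 13 alternatives tried, with no call in any of them.

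The bt2 gene encodes a small, catalytic subunit, and is known as the partner of sh2 in the endosperm. It had 7.11, 6.7 and 6.51 FPKM in KO replicates 1, 2 and 3, and 20.8, 21.2 and 11.4 FPKM in WT replicates 1, 2 and 3. All KO libraries lay close together and below every WT library, of which replicate 3 was the lowest. The means were 6.77 ± 0.31 FPKM in KO and 17.8 ± 5.55 FPKM in WT (SD, n = 3 each). The log2 fold change was -1.22 ± 0.25 (SE) with a 95% interval of -1.83 to -0.61 (limma adjusted p = 0.0137), lower than that of all but 9.99% of the tested genes. In read counts, 929 in KO and 1989 in WT, the ratio after scaling was 0.378, with a 95% counting interval of 0.349 to 0.409 (exact binomial, counting error only). The call was lost by a small margin without KO replicate 3 (log2 fold change -1.20, limma adjusted p = 0.0559) and without WT replicate 1 (-1.09, adjusted p = 0.0531). It was lost as well when every library was rescaled to the same sum of FPKM, at -0.996 (limma adjusted p = 0.071). Without WT replicate 3 the log2 fold change was -1.50 (limma adjusted p = 0.00092).

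**Figure D2:**
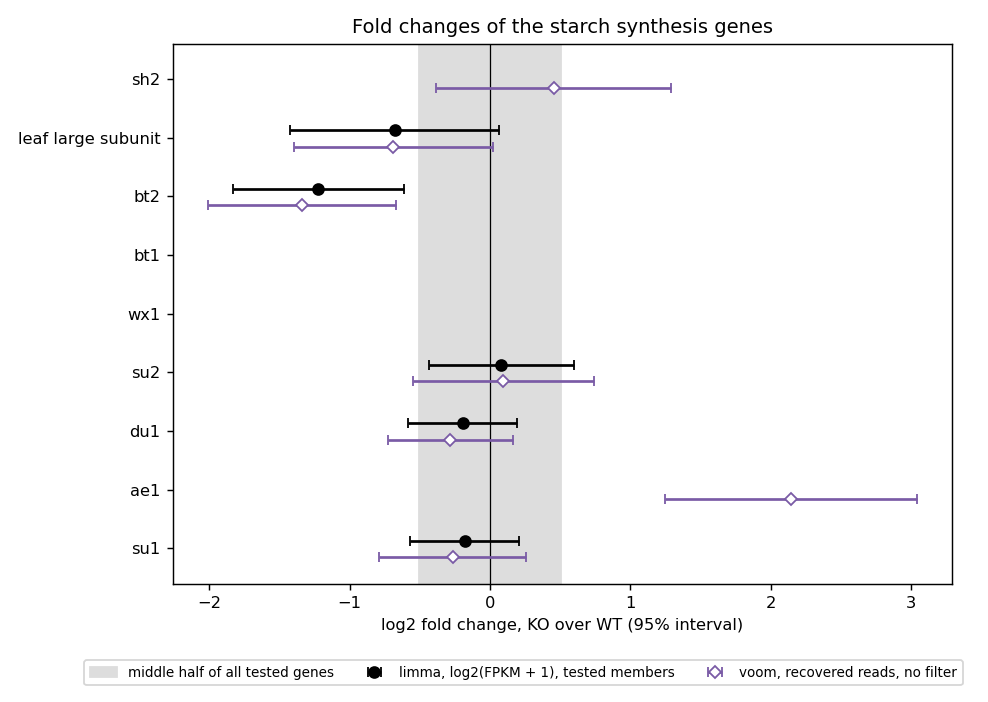
Log2 fold change of KO over WT with its 95% interval, for the 5 tested genes from limma on log2(FPKM + 1) (black circles) and for the 7 genes with reads in every library from voom on recovered reads with no filter (open purple diamonds). The grey band is the interquartile range of all tested genes, from -0.51 to 0.50; the intervals of bt2 and ae1 do not reach 0.

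The balance between the subunit transcripts of the set could be read within each library, where no scaling between libraries enters. The set holds bt2 as its only small subunit gene, and the leaf form and sh2 as its only large subunit genes. Other subunit genes were not analysed here, so these ratios do not give the subunit balance of the whole shoot enzyme. The leaf large subunit stood to sh2 as 41.8, 43.5 and 39.3 to 1 in KO replicates 1, 2 and 3, and as 99.3, 89.4 and 89.5 to 1 in WT replicates 1, 2 and 3. WT replicate 3 lay with the other WT libraries in this ratio, although its levels of both genes were about those of the KO libraries or lower. The log2 ratio was 5.37 ± 0.073 in KO and 6.53 ± 0.087 in WT (SD, n = 3 each), a difference of -1.16 (two-sided exact permutation test, p = 0.1, below which 3 libraries against 3 cannot go). Of the FPKM of the leaf form and sh2 together, the leaf form held 97.5% to 97.8% in KO libraries and 98.9% to 99.0% in WT libraries. It was thus the higher of these 2 in both genotypes.

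The summed large subunits stood to bt2 as 5.89, 5.58 and 5.98 to 1 in KO replicates 1, 2 and 3, and as 3.77, 3.85 and 3.39 to 1 in WT replicates 1, 2 and 3. The groups did not overlap. The log2 ratio was 2.54 ± 0.053 in KO and 1.87 ± 0.099 in WT (SD, n = 3 each), a difference of 0.67 (two-sided exact permutation test, p = 0.1, again the lowest possible). Relative to the leaf large subunit, then, bt2 and sh2 differed between the genotypes in opposite directions, with less bt2 and more sh2 per leaf large subunit transcript in KO. By its own level sh2 overlapped between the groups and was not called. How many gene pairs have ratios that do not overlap was not computed, and 49.4% of single tested genes did not overlap.

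**Figure D3:**
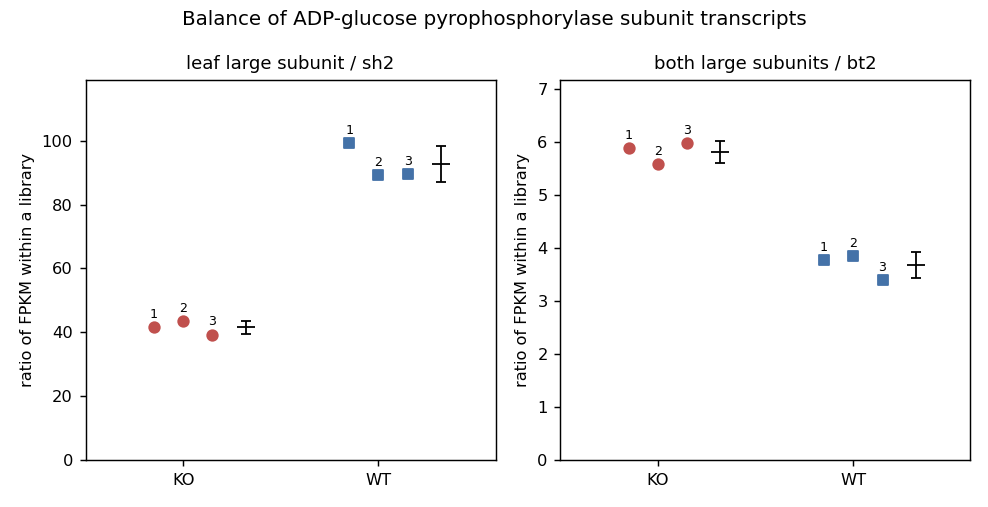
Ratio of FPKM within each library, of the leaf large subunit over sh2 (left) and of both large subunits over bt2 (right), in the 3 KO libraries (red circles) and the 3 WT libraries (blue squares), with the mean ± SD of each group. The KO libraries lie between 39.3 and 43.5 on the left, below all WT libraries, and between 5.58 and 5.98 on the right, above all WT libraries. Both large subunits are the leaf form and sh2, and other subunit genes were not analysed.

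The bt1 gene encodes the carrier that brings ADP-glucose into the amyloplast of the endosperm. It was listed at 0 in all 3 KO libraries and in WT replicates 1 and 3, and at 0.184 FPKM in WT replicate 2. With no filter it was not called (limma adjusted p = 0.501 on log2(FPKM + 1) and 0.367 with voom). The number of reads behind that single value is uncertain, because a gene with reads in 1 library leaves its length open, and the voom fit used the smallest whole number that fits.

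The wx1 gene encodes the granule-bound starch synthase of the endosperm, which makes amylose. It had 1, 1 and 3 reads in KO replicates 1, 2 and 3 (0.0188, 0.0238 and 0.0621 FPKM) and 0 reads in every WT library. The 5 reads of the KO group have a 95% Poisson interval of 1.62 to 11.7 reads, which overlaps the interval of 0 to 3.69 reads of the WT group, so no fold is given. With no filter wx1 was not called (limma adjusted p = 0.465 on log2(FPKM + 1) and 0.0711 with voom on the recovered reads). Both kernel genes were thus barely detected in the shoot.

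Starch synthase IIa, the product of su2, lengthens short chains of amylopectin. Its gene had 3.79, 3.6 and 5.36 FPKM in KO replicates 1, 2 and 3, and 4.48, 4.38 and 3.02 FPKM in WT replicates 1, 2 and 3. The highest value was in KO replicate 3 and the lowest in WT replicate 3, and the groups overlapped. The log2 fold change was 0.08 with a 95% interval of -0.44 to 0.60 (limma adjusted p = 0.808).

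Starch synthase III, the product of du1, also acts on amylopectin, and in the kernel its loss gives a dull endosperm. Its gene had 2.1, 1.94 and 2.04 FPKM in KO replicates 1, 2 and 3, and 2.19, 2.72 and 2.52 FPKM in WT replicates 1, 2 and 3. All KO libraries lay below all WT libraries, but the gap between the nearest was small. The log2 fold change was -0.20 with a 95% interval of -0.58 to 0.19 (limma adjusted p = 0.396). The pooled reads, 865 in KO and 853 in WT, gave a ratio after scaling of 0.82 with a counting interval of 0.745 to 0.902, which leaves out the spread between libraries.

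The ae1 gene encodes starch branching enzyme IIb, which in the kernel places branches on amylopectin. It had 0.652, 0.816 and 0.742 FPKM in KO replicates 1, 2 and 3, and 0.1, 0.237 and 0.177 FPKM in WT replicates 1, 2 and 3. The lowest KO library lay well above the highest WT library. The means were 0.737 ± 0.082 FPKM in KO and 0.171 ± 0.068 FPKM in WT (SD, n = 3 each). The values rested on 145, 143 and 150 reads in the KO libraries and 16, 41 and 27 reads in the WT libraries. The pooled reads, 438 in KO and 84 in WT, gave a ratio of 4.22 with a counting interval of 3.33 to 5.39. The filter on low values kept ae1 out of the test. With no filter its log2 fold change on the log2(FPKM + 1) scale was 0.57 ± 0.09 (SE, limma adjusted p = 0.0090), a scale that understates changes of weak genes, and in that fit 22.9% of the 31946 genes above 0 in a library were called, 11.7% as rising. With voom on the recovered reads, a fit chosen after seeing the data, it was 2.14 ± 0.38 (SE, limma adjusted p = 0.0072), where 24.5% of genes were called, 12.6% as rising. The fit with no filter kept an adjusted p below 0.05 in all 13 alternatives tried for ae1, the highest being 0.046 without WT replicate 1. By FPKM ae1 remained low in both genotypes, above 16.8% to 18.7% of the detected genes in KO libraries and above 4.45% to 8.73% in WT libraries. This rank and the filter both rest on the length of 11290 bases worked back for ae1.

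The su1 gene encodes an isoamylase that removes misplaced branches, and its loss gives sweet kernels. It had 1.88, 1.67 and 1.8 FPKM in KO replicates 1, 2 and 3, and 2.44, 1.97 and 2.08 FPKM in WT replicates 1, 2 and 3. As for du1, every KO library lay below every WT library by a small gap. The log2 fold change was -0.18 with a 95% interval of -0.57 to 0.21 (limma adjusted p = 0.435).

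The spread between replicates was unequal. The coefficient of variation of the leaf large subunit was 5.83% in KO and 36.2% in WT, that of bt2 was 4.58% in KO and 31.2% in WT, and that of sh2 was 8.29% in KO and 35.3% in WT. In these 3 pyrophosphorylase genes WT replicate 3 was the low library, with 0.482 times the mean of the other WT libraries for the leaf large subunit, 0.543 times for bt2 and 0.506 times for sh2. In the same library su2 stood at 0.682 times, du1 at 1.03 times, ae1 at 1.05 times and su1 at 0.946 times the mean of the other WT libraries. Over all tested genes this library departed by a median of 0.04 on the log2(FPKM + 1) scale, with quartiles of -0.34 and 0.46. It also had the highest sum of FPKM, 857831 against 597454 and 662881 in the other WT libraries. Rescaling to equal sums divides its values by 1.33, against 1.03 and 0.92 in WT replicates 1 and 2, and so lowers them further. The part of the high sum in these levels was not tested. KO replicate 2 departed from the other KO libraries by -0.26 for su2 on the log2(FPKM + 1) scale. For the other 8 genes it departed by -0.11 to 0.10. Over all tested genes the SD was larger in WT than in KO for 59.3%.

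**Figure D4:**
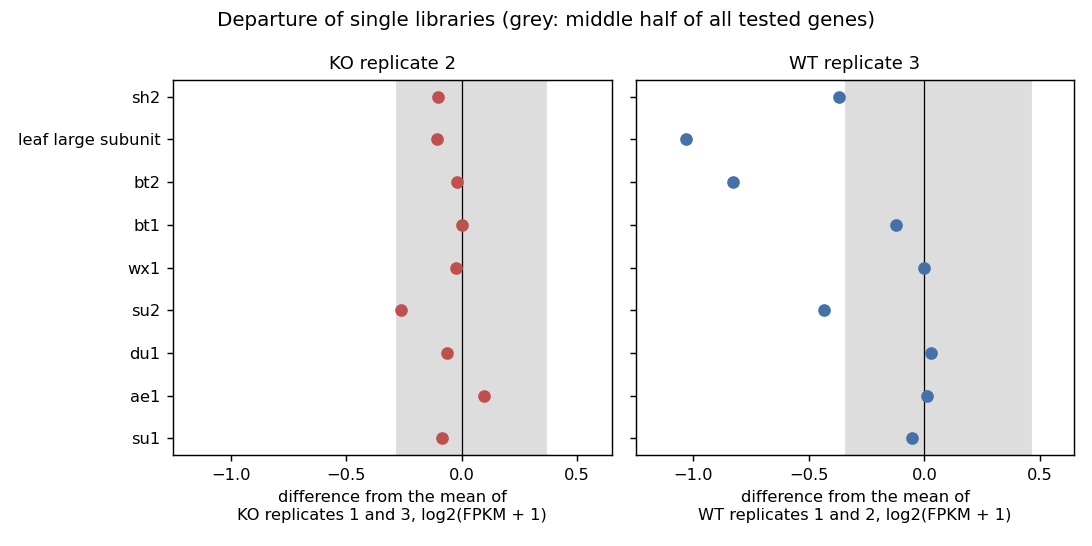
Difference of KO replicate 2 (left, red) and WT replicate 3 (right, blue) from the mean of the other libraries of its group on the log2(FPKM + 1) scale, for each of the 9 genes, with the interquartile range of all tested genes in grey. In WT replicate 3 the leaf large subunit lies at -1.03, bt2 at -0.83, su2 at -0.43 and sh2 at -0.37, all 4 below the grey band, and in KO replicate 2 all 9 genes lie within it.

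Genes with patterns most like those of the leading members were sought by Pearson's r of log2(FPKM + 1) over the 6 libraries, among genes with a mean of at least 10 FPKM. For the leaf large subunit these were Zm00001d028429 (r = 0.9996) and Zm00001d051840 (r = 0.995), and for bt2 they were Zm00001d004855 (r = 0.998) and Zm00001d019303 (r = 0.997). Zm00001d028429 had 10.3, 7.91 and 8.65 FPKM in KO replicates 1, 2 and 3, and 61.5, 63.9 and 8.84 FPKM in WT replicates 1, 2 and 3, and so shared the low value of WT replicate 3. The 6 libraries hold 2 genotypes and a WT library that stands apart, so that such likeness is common: r reached 0.95 for 188 of 11403 genes against the leaf large subunit and for 416 against bt2.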

How the data were processed

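RNA of 6 libraries was sequenced as 150 bp paired-end reads. TopHat2, Cufflinks, Cuffdiff and the build B73 RefGen_v4 are listed in the submitters' processing notes, which as used here state neither versions, annotation, filters nor strandedness. For each library the authors deposited FPKM values for 44146 identifiers, and no header names the unit. Because strandedness is not stated and near-identical copies can share reads, each identifier carries that uncertainty.

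The values were whole multiples of a step per gene once a factor per library was removed, for 100% of the 27456 genes above 0 in at least 4 libraries (tolerance 0.005 of a read). Reads and lengths are the smallest whole numbers that fit. The library totals behind the FPKM were 0.79 to 1.12 times the recovered reads. Intervals and floors cover counting error only.

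The main test was limma 3.58.1 in R 4.3.3 on log2(FPKM + 1) (empirical Bayes with trend and robust fitting; two-sided; Benjamini-Hochberg over 23232 genes), with the filter on low values given above. The recovery of reads and the limma fit were also run on simulated data, with 1 spread for all genes and libraries and few changed genes. No simulated library stood apart as WT replicate 3 does, so the simulation cannot show how the test behaves with such a library. Python 3.11.15, numpy 2.4.6 and scipy 1.17.1 served for the rest. The members, lists and tests were chosen with earlier results of these data known. Other starch genes and tissue markers were not analysed here because no identifier matched a name. All 9 members are named, and the genes of like pattern follow a rule set with the design (the top 2 by r for each of the 2 most abundant members). Nothing in the labels says that replicate numbers pair the libraries. Deviations of same-numbered libraries correlated at 0.15, -0.37 and -0.20, and those of differently numbered ones at -0.37 to 0.47. Deviations of 3 libraries from their own mean depend on each other, so these values cannot exclude a pairing.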

Additional observations from a re-analysis of the deposited data

How the results depend on the processing

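The count of members called, 1 (bt2), was 0 after rescaling to equal sums of FPKM, 2 with no filter (bt2 and ae1; also 2 with no filter under voom or a pseudocount of 0.1), 2 with library weights and 2 without KO replicate 2 and WT replicate 3 (bt2 and the leaf large subunit), and 0 to 2 with each library left out. Over all genes 7238 were called, 14976 with library weights, 11952 without those 2 libraries, 4579 with a replicate block and 4212 to 8614 with each library left out; the cause was not tested. The replicate block left bt2 called (limma adjusted p = 0.0313) and changed no member's call. The log2 fold change of bt2 was below 0 in all 21 alternatives, from -1.50 to -0.92 (limma adjusted p 1.8e-05 to 0.071), and that of the leaf large subunit in all 21, from -1.02 to -0.43 (limma adjusted p 0.00028 to 0.464). Those of du1 and su1 ranged from -0.46 to -0.01 and that of su2 from -0.07 to 0.28, with 0 calls. Scaling by total recovered reads and rescaling to equal sums moved the median of all tested genes to 0.20 and 0.24, against which bt2 stood at -1.03 and -0.996. With a pseudocount of 1 the difference in log2 ratio was -0.87 for the leaf large subunit over sh2 and 0.57 for both large subunits over bt2, since the pseudocount raises weak genes; with each library left out they were -1.19 to -1.11 and 0.61 to 0.70, and with the replicate block -1.16 and 0.67. The equal-sum rescaling, the voom and pseudocount fits with no filter and the tests of ae1 and sh2 were chosen after seeing the data. The planned edgeR fit was not run, and voom gave the only fits on recovered reads. Depth limits bt1 and wx1.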
